A study of Mus musculus with 12 samples.

Results

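The genes of the interferon response and of antigen presentation were followed as 1 module of 45 genes through 12 mouse liver libraries. The 45 genes were listed by symbol, with earlier results of these data known. Each of them was found by its Entrez identifier among the 26301 genes of the count table. By role they are 3 cytoplasmic RNA sensors, 4 signal transducers and transcription factors, 16 type I interferon-induced antiviral and regulatory genes, 7 interferon gamma-induced GTPases, 10 genes of MHC class I presentation and 5 genes of MHC class II presentation. All 45 passed the filter on low counts, which left 13882 genes for testing.

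The control group consisted of 4 non-tumor livers of adult wild-type mice. The DKO group consisted of 4 spontaneous liver tumors of adult Alb-Cre mice in which E2f7 and E2f8, the atypical E2F repressors, were knocked out, and the TKO group of 4 such tumors in which Rb1, the retinoblastoma tumor suppressor, was knocked out as well. Cre under the albumin promoter acts in hepatocytes, so the immune, endothelial and stromal cells of a tumor keep all 3 genes. The mice were of the fifth generation of breeding into FVB and came from an ageing cohort euthanized at humane end-points, the controls being age-matched, and 1 library was made from each liver or tumor.

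Interferons are cytokines of the antiviral response. Type I interferons signal to the interferon-stimulated response element in promoters, interferon gamma signals to the gamma-activated site, and the induced genes include antiviral effectors, GTPases and the machinery that loads peptides on MHC molecules. Class I molecules are carried by nearly all nucleated cells, hepatocytes included, whereas class II molecules belong mainly to macrophages, dendritic cells and B cells, and in liver the resident Kupffer cells are a main source of them.

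Libraries held 9165812 to 16424973 counts, of which albumin, the main hepatocyte transcript, took 4.82 to 22.7%. Levels are given as CPM, the count of a gene scaled to a common library size by TMM (a correction for differences in library composition). Rb1 was at 10.7, 6.52, 8.27 and 7.69 CPM in the control libraries, 11.3, 8.38, 7.99 and 8.37 CPM in the DKO libraries and 4.22, 5.47, 4.91 and 3.21 CPM in the TKO libraries, so that all 4 TKO libraries were below every other library. E2f7 was at 0.236 to 1.84 CPM in the 12 libraries, and E2f8 was at 4.52 to 8.97 CPM in the controls, 7.59 to 45.6 CPM in the libraries labelled DKO and 12.3 to 52.2 CPM in those labelled TKO. These counts sum all exons of a gene, and a deletion of part of a gene need not lower them, so they do not check the E2f7 and E2f8 labels. In whole tissue, fewer cells of a type and less RNA per cell cannot be told apart, and this holds for every value below.

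No member passed the main test in any comparison, and few differed at an unadjusted threshold. edgeR's quasi-likelihood test with Benjamini-Hochberg adjustment called 0 of the 45 members between DKO tumors and control livers at an adjusted p under 0.05, where 2.42% of all genes tested were called. It called 0 of 45 between TKO tumors and control livers, where 0.0864% of all genes were called, and 0 of 45 between TKO and DKO tumors, where 0 of all genes were called. At an unadjusted p under 0.05 the members numbered 6 between DKO tumors and controls, 2 between TKO tumors and controls and 0 between the tumor groups, or 13.3, 4.44 and 0% of the module, against 24.0, 16.3 and 9.0% of all genes tested. DESeq2 called 2 members between DKO tumors and controls, Ifit2 as higher and B2m as lower in the tumors (10.4% of all genes called), and 0 members in the other 2 comparisons (3.49 and 0.398% of all genes called). limma's voom with quality weights called 2, Ifit2 and Usp18, both higher in the DKO tumors (13.0% of all genes called, 6.68% as higher), and 0 elsewhere (0.699 and 0% of all genes called).

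The median log2 fold change of the members was 0.017 between DKO tumors and controls, -0.16 between TKO tumors and controls and -0.18 between TKO and DKO tumors, beside medians over all genes of 0.019, 0.023 and 0.0099. The 2 comparisons with controls share the control libraries, and the 2 with DKO tumors share the DKO libraries. Tumors and controls differ in both tumor state and genotype, and the parts of these cannot be told apart. In the plot of fold changes by gene, the type I interferon-induced genes had the widest intervals and the genes of class I presentation, apart from a few subunits, lay close to 0.

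**Figure D1:**
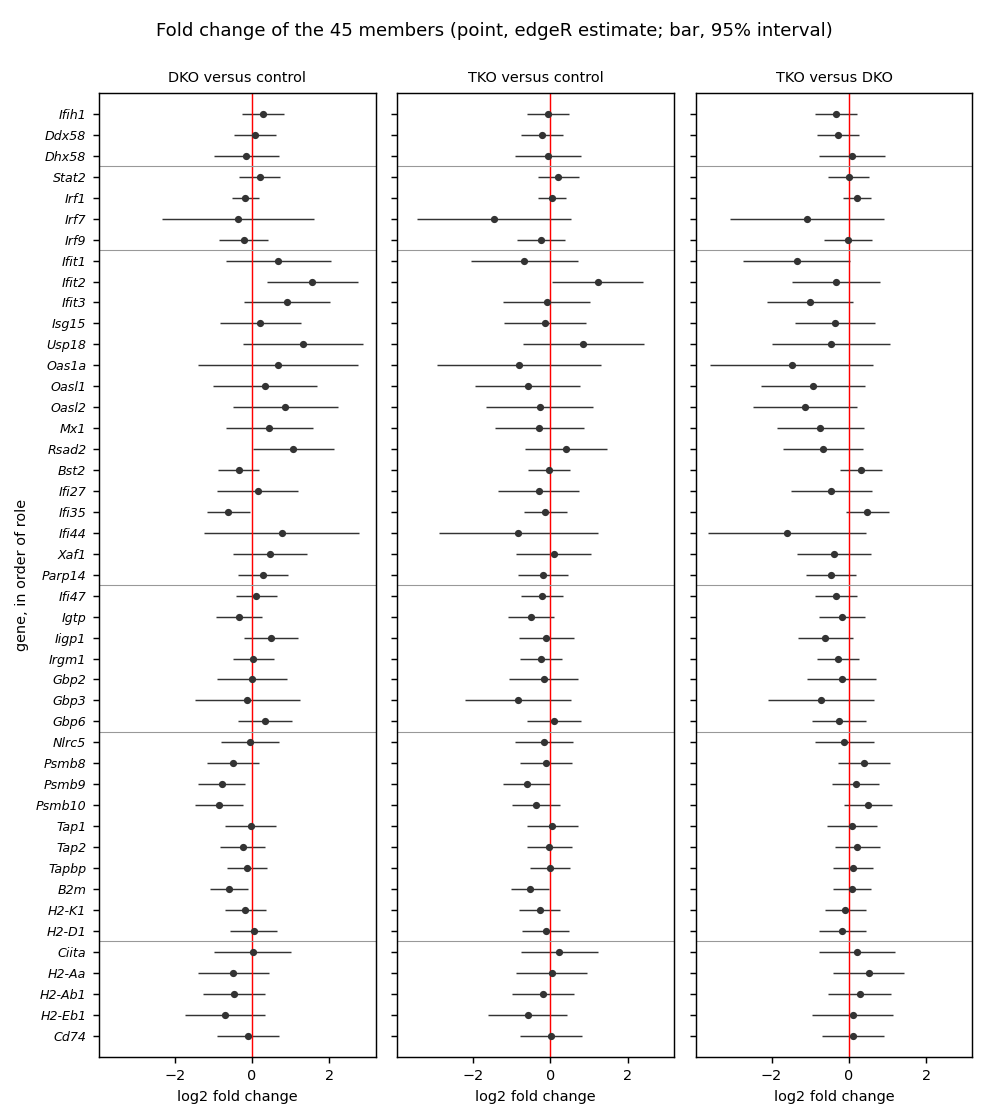
Log2 fold change of the 45 members (x axis) in 3 comparisons, 1 gene a row in the order of the 6 roles (separated by gray lines); points are edgeR estimates, bars are 95% intervals and the red line marks no difference. In the first panel 24 of the 45 points lie above 0, in the second 11 and in the third 16.

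The module varied between livers of 1 group more than most genes did. The median standard deviation within groups was 0.53 on the log2 CPM scale for the members and 0.33 for all genes tested, and 22 of the 45 members were among the most variable 25% of all genes. The type I interferon-induced genes had a median of 0.80, with 13 of 16 among these. All 5 class II genes were among them as well, with a median of 0.59, and 0 of the 10 class I genes, with a median of 0.42.

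A single library in the DKO group stood apart from the rest of its group. In the control group a single library did so for the type I interferon-induced genes. Control 1 had the highest level of the 4 controls for 29 of the 45 members, and it was the highest control for 26.6% of all genes. Control 4 was the highest control for 15 members, among them 5 class II and 5 class I genes, and for 26.6% of all genes. DKO 3 had the highest level of the 4 DKO tumors for 39 of the 45 members, against 23.1% of all genes, and in the TKO group no library was highest for more than 15 members. In control 1, 13 of the 16 type I interferon-induced genes were more than 2-fold above the median of the other controls (6.0% of all genes), and in DKO 3, 11 of the 16 were more than 2-fold above the median of the other DKO tumors (8.19% of all genes). These 2 libraries were singled out after their values were seen. Without both, edgeR again called 0 members in each of the 3 comparisons, where 1.71, 0.00719 and 0% of all genes were called, and the median log2 fold changes were -0.092, 0.043 and 0.13.

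**Figure D2:**
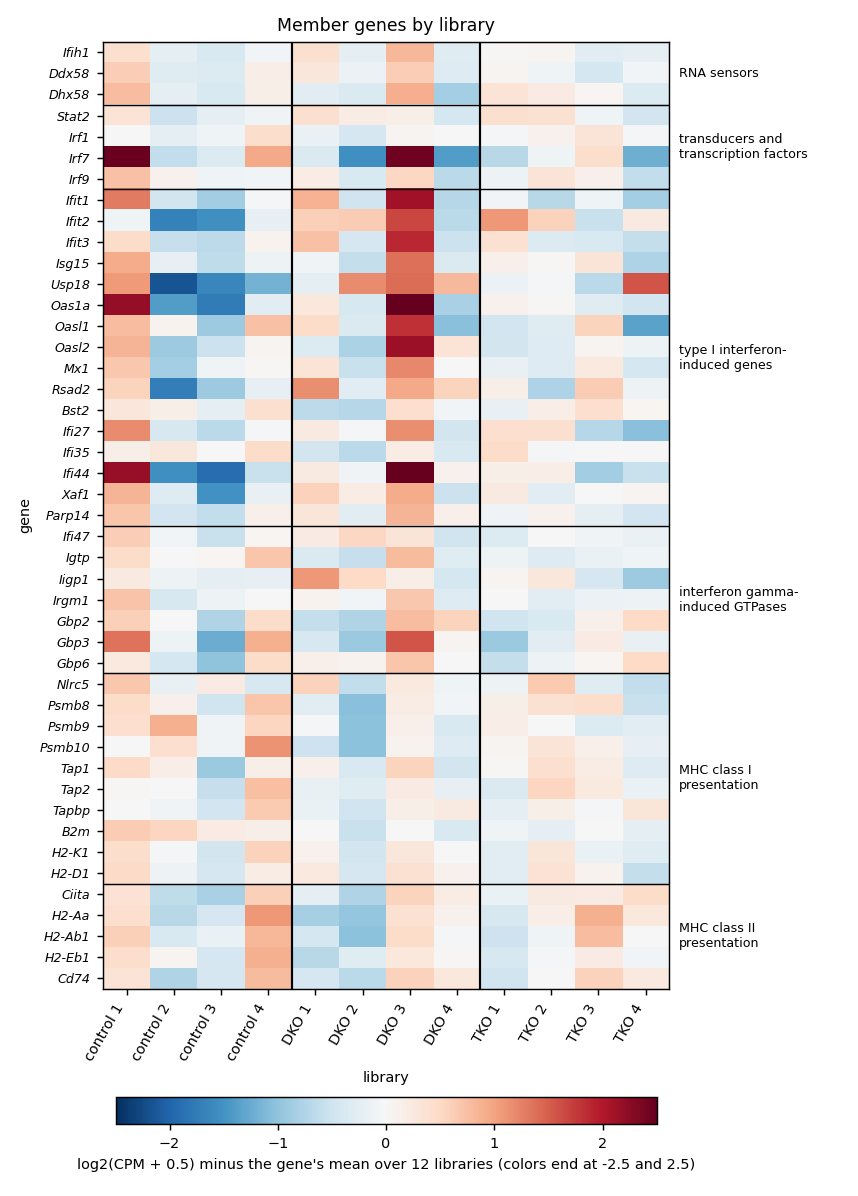
Level of each member (rows, by role) in each of the 12 libraries (columns), as log2(CPM + 0.5) minus the mean of that gene over the 12 libraries; red is above and blue below that mean. Control 1 and DKO 3 are red through most of the type I interferon-induced genes, while class II genes are reddest in control 4 and TKO 3.

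Marker genes of other cell types were high in DKO 3 and, for some cell types, in control 1. The 11 Kupffer cell and macrophage markers summed to 272 to 667 CPM in the controls, 116 to 553 CPM in the DKO tumors and 193 to 733 CPM in the TKO tumors, and control 1 and DKO 3 were the highest of their groups. Control 4, at 658 CPM, was close to control 1, and TKO 3, at 733 CPM, was the highest library. The mean log2 CPM of the type I interferon-induced genes was 3.07 in control 4 and 3.03 in TKO 3, beside 4.05 in control 1 and 4.66 in DKO 3. The 6 pan-leukocyte markers summed to 133 to 224 CPM in the controls, 109.6 to 215 CPM in the DKO tumors and 112 to 204 CPM in the TKO tumors, with 211 CPM in control 1 and 215 CPM in DKO 3. DKO 3 also had the highest sum of its group for T and NK cell, B and plasma cell, dendritic cell, neutrophil and monocyte, endothelial, stellate cell and cholangiocyte markers. Control 1 was the highest control for macrophage and T and NK cell markers only, and control 4 was the highest for pan-leukocyte, B and plasma cell, dendritic cell, neutrophil and monocyte, endothelial and stellate cell markers. None of the listed markers was at 0 in every library. The part of these cells in the levels of the members was not tested.

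RNA sensors detect viral RNA in the cytoplasm and start the production of type I interferons. Ifih1 was at 38.8, 24.7, 22.4 and 27.7 CPM in the control libraries, 38.5, 24.5, 52.1 and 23.6 CPM in the DKO libraries and 29.7, 30.4, 24.3 and 24.8 CPM in the TKO libraries. Ifih1, which encodes the sensor MDA5, had its highest level in DKO 3, and the ranges of the 3 groups overlapped. Its log2 fold change was 0.29 ± 0.25 (SE) between DKO tumors and controls (edgeR adjusted p = 0.516), -0.057 ± 0.25 between TKO tumors and controls (adjusted p = 0.94) and -0.34 ± 0.25 between TKO and DKO tumors (adjusted p = 0.699).

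Ddx58, which encodes RIG-I, was at 46.4, 24.3, 23.7 and 34.1 CPM in the controls, 37, 27.2, 46.6 and 24.2 CPM in the DKO tumors and 31.9, 28.1, 22.2 and 29 CPM in the TKO tumors, and control 1 and DKO 3 were again the highest libraries. Dhx58, which encodes the regulatory sensor LGP2, was at 12.2, 5.78, 5.22 and 7.76 CPM in the controls, 5.6, 5.3, 13.5 and 3.6 CPM in the DKO tumors and 8.92, 8.1, 7.21 and 5.37 CPM in the TKO tumors. On the scale per kb of exon, the control means were 5.15 CPM per kb for Ifih1, 4.56 for Ddx58 and 2.24 for Dhx58. No sensor passed the test in any comparison, with log2 fold changes between -0.34 ± 0.25 and 0.29 ± 0.25.

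Among the transcription factors, Irf7 carried the largest range. Irf7 was at 79.9, 8.97, 11 and 27.5 CPM in the control libraries, 10.8, 4.51, 78.1 and 5.01 CPM in the DKO libraries and 8.56, 12.9, 19.3 and 5.74 CPM in the TKO libraries. IRF7 (Entrez 54123, chromosome 7 from 148448605 to 148452380 in mm9), the factor that amplifies type I interferon production and is itself induced by interferon, was at a like level in control 1 and DKO 3, and the highest of the other 10 libraries was control 4. The lowest and the highest of the 12 libraries differed 17.7-fold. The log2 fold change was -0.37 ± 0.90 between DKO tumors and controls (edgeR adjusted p = 0.834), but 0.63 without control 1 and -2.24 without DKO 3, so that its direction rested on control 1. It was -1.46 ± 0.92 between TKO tumors and controls (adjusted p = 0.464) but -0.46 without control 1, and -1.09 ± 0.92 between TKO and DKO tumors (adjusted p = 0.741) but 0.78 without DKO 3.

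Stat2 and Irf9, whose products act at the interferon-stimulated response element, varied far less. Stat2 was at 52.8, 28.4, 34.8 and 39 CPM in the control libraries, 54.7, 47.5, 45.8 and 30.7 CPM in the DKO libraries and 55.1, 54.2, 38.6 and 30.1 CPM in the TKO libraries. Stat2 had log2 fold changes of 0.20 ± 0.24 (edgeR adjusted p = 0.646) in DKO tumors and 0.20 ± 0.24 (adjusted p = 0.739) in TKO tumors against the controls. Irf9 ranged from 15.6 CPM in DKO 4 to 42.1 CPM in control 1. Irf1, a factor induced by interferon gamma that acts on class I genes, was at 36.8, 31.5, 33.9 and 50.2 CPM in the controls, 32.7, 27.4, 38.5 and 36.9 CPM in the DKO tumors and 36.2, 39.7, 45.9 and 36 CPM in the TKO tumors, the narrowest spread of the 4. The log2 fold change of this gene between TKO and DKO tumors was 0.22 ± 0.17 (adjusted p = 0.709).

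**Figure D3:**
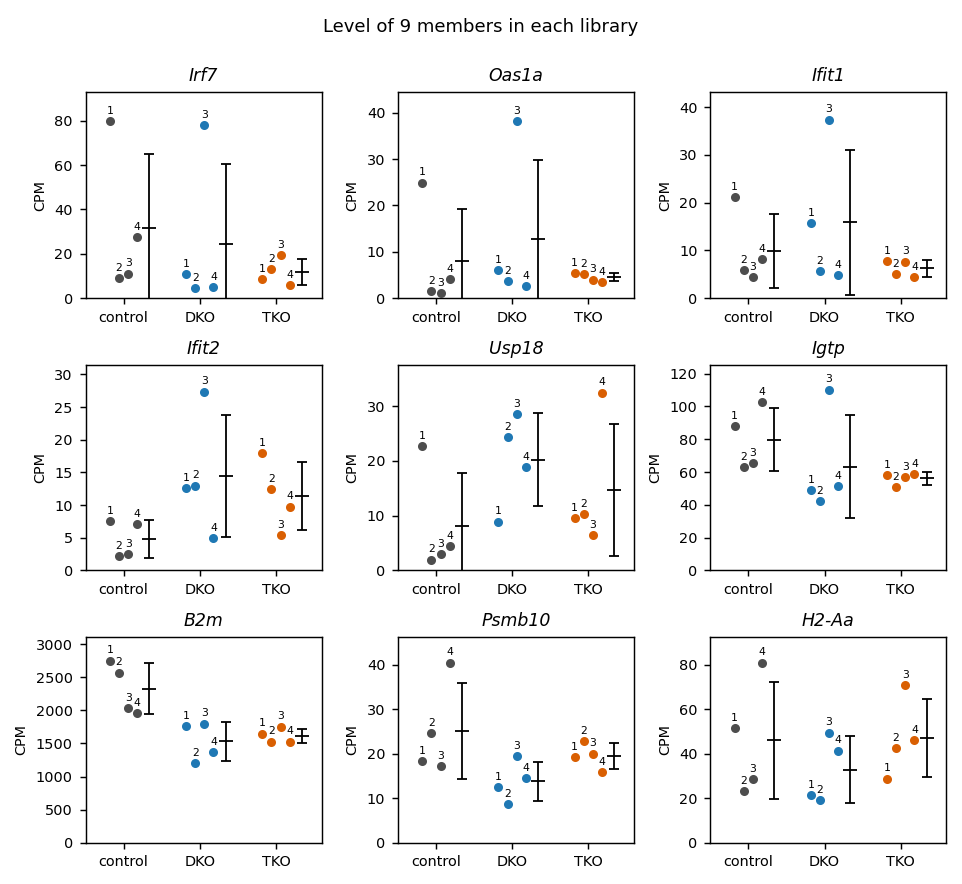
CPM of 9 members in each library (points, numbered by library within the group) in the control, DKO and TKO groups; the horizontal mark is the mean and the bar 1 SD (n = 4), which for some genes reaches below the axis at 0. Irf7, Oas1a and Ifit1 peak in control 1 and DKO 3, Ifit2 and Usp18 are also high in other tumors, and B2m lies below all controls in every tumor.

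The type I interferon-induced genes encode effectors that block viral RNA, translation or budding, and feedback regulators. Of the 16, 14 had a log2 fold change above 0 between DKO tumors and controls, with a median of 0.57, but only 4 of 16 between TKO tumors and controls, with a median of -0.17, and 2 of 16 between TKO and DKO tumors, with a median of -0.57. The medians over all genes were 0.019, 0.023 and 0.0099, and 0 of the 16 passed the edgeR test in any comparison. Without control 1 and DKO 3 the medians of the 16 genes were 0.38 in DKO tumors, 0.24 in TKO tumors and -0.089 between the tumor groups, so that the sign of the median in TKO tumors depended on these libraries. The mean log2 CPM of the 16 genes was 4.05, 2.29, 2.15 and 3.07 in the controls, 3.39, 2.87, 4.66 and 2.89 in the DKO tumors and 3.23, 3.02, 3.03 and 2.80 in the TKO tumors. The 4 TKO tumors thus lay between 2.80 and 3.23, inside the range of the controls. Control 1, at 4.05, set the top of that range, and TKO 1, at 3.23, was above the other controls. The SD of the TKO tumors, 0.175, was below the 0.873 of the controls and the 0.840 of the DKO tumors. Those 2 SDs include control 1 and DKO 3, at 4.05 and 4.66.

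Oas1a and Ifi44 had the largest ranges of all 45 members. Oas1a was at 24.9, 1.6, 1.15 and 4.03 CPM in the control libraries, 6.13, 3.72, 38.3 and 2.65 CPM in the DKO libraries and 5.49, 5.19, 3.99 and 3.51 CPM in the TKO libraries. Oas1a, an oligoadenylate synthetase that activates RNase L upon viral RNA, was 33.2-fold higher in DKO 3 than in control 3, and outside control 1 and DKO 3 its highest level was 6.13 CPM. Ifi44 was at 25.4, 1.48, 1.02 and 3.37 CPM in the control libraries, 6.13, 4.9, 36.9 and 5.66 CPM in the DKO libraries and 5.79, 5.9, 2.61 and 3.36 CPM in the TKO libraries. Ifi44, a cytoplasmic interferon-induced protein of the antiviral response, had the lowest fold change of this group in TKO tumors, -0.83 ± 0.95 against the controls (edgeR adjusted p = 0.717) and -1.60 ± 0.94 against the DKO tumors (adjusted p = 0.628). Without control 1 the difference between TKO tumors and controls was 1.16, and without DKO 3 that between the tumor groups was -0.33. The other 3 controls were at 1.02 to 3.37 CPM. DESeq2 gave no adjusted p for Oas1a and Ifi44.

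Ifit1, Ifit2 and Ifit3 lie in a cluster on chromosome 19 and encode proteins that bind viral RNA or the translation machinery. DKO 3 was the highest of the 12 libraries for all 3, but their levels in the other tumors differed. Ifit1 was at 21.2, 5.9, 4.34 and 8.13 CPM in the control libraries, 15.6, 5.7, 37.4 and 4.83 CPM in the DKO libraries and 7.84, 4.97, 7.67 and 4.4 CPM in the TKO libraries. Ifit3 was at 9.79, 4.55, 4.27 and 7.47 CPM in the control libraries, 12, 5.14, 27.1 and 4.66 CPM in the DKO libraries and 9.29, 5.4, 5.29 and 4.48 CPM in the TKO libraries. For both, as for Oas1a, all TKO levels lay within the range of the controls.

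Ifit2 was at 7.56, 2.21, 2.51 and 7.1 CPM in the control libraries, 12.7, 13, 27.4 and 4.95 CPM in the DKO libraries and 18, 12.4, 5.45 and 9.77 CPM in the TKO libraries. Ifit2 (Entrez 15958, chromosome 19 from 34625184 to 34650909 in mm9) was above all 4 controls in 3 of the 4 DKO and 3 of the 4 TKO tumors, with DKO 4 and TKO 3 inside the control range. Its log2 fold change was 1.56 ± 0.54 between DKO tumors and controls (95% interval 0.40 to 2.73, edgeR adjusted p = 0.113), and the adjusted p was 0.04 by DESeq2 and 0.0378 by voom. Without control 1 and DKO 3 it was 1.35 (edgeR adjusted p = 0.176). In TKO tumors it was 1.22 ± 0.54 above the controls (95% interval 0.048 to 2.39, adjusted p = 0.291), and between the tumor groups -0.34 ± 0.52 (adjusted p = 0.864). The ratio of Ifit2 to Ifit1 in CPM was 0.357 to 0.874 in the controls, 0.733 to 2.28 in the DKO tumors and 0.710 to 2.5 in the TKO tumors, highest in DKO 2, TKO 1, TKO 2 and TKO 4. The ratio was computed after the values were seen and carries no test.

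Usp18, the protease that removes ISG15 from proteins and blocks the type I interferon receptor, is described because voom called it. Usp18 was at 22.7, 1.97, 3.05 and 4.39 CPM in the control libraries, 8.89, 24.4, 28.6 and 18.9 CPM in the DKO libraries and 9.53, 10.2, 6.44 and 32.5 CPM in the TKO libraries. Controls 2, 3 and 4 were below all 8 tumors, and control 1 lay among the highest tumors. The fold change on the log2 scale was 1.32 ± 0.72 between DKO tumors and controls (edgeR adjusted p = 0.287, voom adjusted p = 0.0452) and 0.85 ± 0.72 between TKO tumors and controls (edgeR adjusted p = 0.6). Without control 1 and DKO 3 these were 2.45 (edgeR adjusted p = 0.0676) and 2.20 (adjusted p = 0.238). In TKO 4, where Usp18 reached 32.5 CPM, Isg15 itself was at 4.03 CPM, the lowest of the 12 libraries. Across the libraries Isg15, the ubiquitin-like modifier, ranged up to 19.6 CPM in DKO 3.

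Rsad2, which encodes viperin, had the third largest positive fold change of the group in DKO tumors, 1.07 ± 0.48 (edgeR adjusted p = 0.202), with 10.4, 1.72, 3.46 and 5.93 CPM in the controls and 16, 5.62, 13.7 and 10.4 CPM in the DKO tumors. Ifi35, an interferon-induced protein, was the lowest of the group at -0.61 ± 0.26 in DKO tumors (adjusted p = 0.169). Ifi35 was at 3.63, 4.06, 3.25 and 4.61 CPM in the control libraries, 2.22, 1.82, 3.73 and 2.36 CPM in the DKO libraries and 4.58, 3.13, 3.22 and 3.21 CPM in the TKO libraries. DKO 1, DKO 2 and DKO 4 were below every other library, and an antisense transcript covers 16.8% of the exon bases of Ifi35 in the annotation. Ifi35 differed by 0.48 ± 0.26 between TKO and DKO tumors (adjusted p = 0.59). The remaining genes, Oasl1, Oasl2, Mx1, Bst2, Ifi27, Xaf1 and Parp14, had log2 fold changes from -0.34 to 0.86 in DKO tumors and from -0.59 to 0.082 in TKO tumors. Per kb of exon, Bst2, the tetherin that holds virions at the cell surface, and Ifi27 were the highest of the 16 genes in controls, at 93.8 and 81.4 CPM per kb, and Mx1, a GTPase that acts against influenza virus, was the lowest at 0.366. Oas1a shares much of its sequence with its paralogs, so counts may be divided between them in a way that the counting rules do not reveal here.

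Promoter sequences are given for a few members as a description. RefSeq (GRCm38.p6) gave promoters for 33 of the 45 members, and the 250 bases before each start were searched on both strands for the core of the interferon-stimulated response element, which is GAAA, any 2 bases and GAAA. It was found in 12 of the 33 members, or 36.4%, and in 3.5% of all 27025 genes with a promoter. Among the type I interferon-induced genes it was in 6 of 12 and among the GTPases in 4 of 5. TTCNNNGAA, the core of the gamma-activated site, was in 6 of the 33 members, or 18.2%, and in 8.1% of all genes, and in Bst2 it overlapped the other core. The 150 bases before the start of Ifit1 (chr19:34640739-34640888), Ifit3 (chr19:34583379-34583528) and Ifit2 (chr19:34550544-34550693) on the plus strand and of Isg15 (chr4:156200819-156200968) and Oas1a (chr5:120907526-120907675) on the minus strand are shown because Ifit1, Ifit3, Isg15 and Oas1a had all 4 TKO levels below the highest control, while Ifit2 was above every control in 3 of the 4 TKO tumors. Control 1 was the highest control for each of these genes, so this contrast rested in part on that library. Above all other controls were TKO 1, TKO 2 and TKO 3 for Isg15, TKO 1 and TKO 2 for Oas1a and TKO 1 for Ifit3. For Ifit1 no TKO tumor was above control 4, at 8.13 CPM. Capitals mark the response element core or its reverse complement in Ifit1, Ifit3, Isg15 and Oas1a. They also mark TTCNNNGAA in Oas1a and the E2F core TTTCCCGC in Ifit2.
Ifit1: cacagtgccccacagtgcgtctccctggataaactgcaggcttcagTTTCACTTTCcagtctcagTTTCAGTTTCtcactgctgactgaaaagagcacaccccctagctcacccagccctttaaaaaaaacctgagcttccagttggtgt
Ifit3: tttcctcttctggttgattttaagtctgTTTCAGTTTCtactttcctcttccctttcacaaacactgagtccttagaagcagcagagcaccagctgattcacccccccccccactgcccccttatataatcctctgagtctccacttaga
Isg15: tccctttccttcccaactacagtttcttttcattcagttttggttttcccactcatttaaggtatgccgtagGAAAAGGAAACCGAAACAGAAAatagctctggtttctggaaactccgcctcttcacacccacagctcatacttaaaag
Oas1a: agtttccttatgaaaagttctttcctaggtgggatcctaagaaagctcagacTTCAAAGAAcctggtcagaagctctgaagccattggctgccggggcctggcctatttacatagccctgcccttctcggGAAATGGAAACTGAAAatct
Ifit2: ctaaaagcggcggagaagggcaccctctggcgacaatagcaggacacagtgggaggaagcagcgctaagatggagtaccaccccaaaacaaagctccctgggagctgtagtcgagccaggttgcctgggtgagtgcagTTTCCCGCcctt

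Overlapping matches in Isg15 and in Oas1a form runs of the core. The Ifit2 window does not hold the letters of the response element core, and its TTCNNNGAA match lies farther upstream, 241 to 233 bases before the start. Ifit2 has 2 RefSeq entries, and the E2F core lies 12 to 5 bases before the start of 1 of them. That entry is shown because it held the most matches, and the other entry held none. TTTCCCGC or TTTGGCGC, the E2F cores searched, were in 3 of the 33 members, Ifit2, Psmb9 and Tap1, and in 1.5% of all genes. These matches describe the letters of the reference, no binding was measured, and their relation to the levels was not tested.

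The interferon gamma-induced GTPases act against intracellular pathogens. Of the 7, 5 had a log2 fold change above 0 in DKO tumors and 1 in TKO tumors against the controls, with medians of 0.038 and -0.22, and 0 passed the test. Iigp1 was the most abundant per length, at 150.5 CPM per kb in the controls, 213 in the DKO tumors and 139.7 in the TKO tumors. Iigp1 was at 574, 453, 423 and 429 CPM in the control libraries, 1047, 694, 548 and 365 CPM in the DKO libraries and 515, 599.8, 367 and 262 CPM in the TKO libraries. It was highest in DKO 1 and DKO 2, not in DKO 3, and its log2 fold change was 0.50 ± 0.32 in DKO tumors against the controls (edgeR adjusted p = 0.374).

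Igtp was at 88.2, 63.1, 65.4 and 103 CPM in the control libraries, 49.2, 42.4, 110.3 and 51.3 CPM in the DKO libraries and 58.2, 50.7, 56.9 and 58.8 CPM in the TKO libraries. Igtp, an immunity-related GTPase, was below all controls in the 4 TKO tumors and in 3 of the 4 DKO tumors, while DKO 3 was the highest of all libraries. TKO tumors and controls did not overlap, with the TKO tumors lower, for 2 of the 45 members, Igtp and B2m, and for 3.29% of all genes. The log2 fold change was -0.51 ± 0.27 in TKO tumors (edgeR adjusted p = 0.386) and -0.33 ± 0.27 in DKO tumors (adjusted p = 0.487). Without control 1 and DKO 3 the difference in DKO tumors was -0.69 (adjusted p = 0.0801).

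Gbp3, a guanylate-binding protein, had its highest level in DKO 3, like most of the type I genes. Gbp3 was at 13.9, 4.67, 1.9 and 9.96 CPM in the control libraries, 3.76, 2.45, 16.2 and 5.42 CPM in the DKO libraries and 2.47, 4.19, 5.98 and 4.48 CPM in the TKO libraries. Control 1, control 4 and DKO 3 were its highest libraries, and its log2 fold change was -0.84 ± 0.63 in TKO tumors against the controls (edgeR adjusted p = 0.548) and -0.71 ± 0.63 between the tumor groups (adjusted p = 0.753). Gbp6 was at 20.4, 12.5, 8.34 and 23.8 CPM in the controls, 18.9, 18.3, 27.9 and 17.3 CPM in the DKO tumors and 11.2, 15.8, 17.8 and 24.5 CPM in the TKO tumors, with a log2 fold change of 0.085 ± 0.32 in TKO tumors (adjusted p = 0.928). The other 3 GTPases, Ifi47, Irgm1 and Gbp2, had log2 fold changes of 0.12 ± 0.25, 0.038 ± 0.25 and 0.0029 ± 0.41 in DKO tumors and -0.22 ± 0.25, -0.24 ± 0.25 and -0.18 ± 0.41 in TKO tumors against the controls. The promoter of Igtp, 150 bases at chr11:58199406-58199555 on the plus strand, is shown because it carries both the gamma-activated site core and, after it, the response element core, each in capitals.
Igtp: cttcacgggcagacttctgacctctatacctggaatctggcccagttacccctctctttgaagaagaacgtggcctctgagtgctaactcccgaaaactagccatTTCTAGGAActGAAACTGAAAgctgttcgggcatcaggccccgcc

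In class I presentation, B2m and 2 immunoproteasome subunits had the lowest fold changes and the other members lay closer to the controls, with 0 of 10 passing the edgeR test. Of the 10 genes, 9 had a log2 fold change below 0 in DKO tumors, with a median of -0.21, and 9 in TKO tumors, with a median of -0.14. B2m, the invariant light chain of every class I molecule (Entrez 12010, chromosome 2 from 121973422 to 121978819 in mm9), was at 2750.4, 2571, 2037 and 1957 CPM in the controls, 1763, 1202, 1798 and 1369.9 CPM in the DKO tumors and 1649, 1528, 1755 and 1527 CPM in the TKO tumors. All 8 tumors were below all 4 controls. Between DKO tumors and controls it was the only 1 of the 45 members without overlap, where 7.30% of all genes were lower in the tumors without overlap and 16.2% did not overlap in either direction. Between TKO tumors and controls these shares were 3.29 and 7.67%, and between the tumor groups, where 4.87% of all genes did not overlap, 0 of 45 members did so.

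The log2 fold change of B2m was -0.60 ± 0.23 in DKO tumors (95% interval -1.10 to -0.11, edgeR adjusted p = 0.133) and -0.53 ± 0.23 in TKO tumors (95% interval -1.02 to -0.036, adjusted p = 0.275). DESeq2's adjusted p was 0.0123 and 0.0545, so that DESeq2 called it in DKO tumors and not in TKO tumors. An exact permutation test (two-sided, all 70 splits of 8 libraries into groups of 4) gave p = 0.0286 for either comparison. This value is unadjusted and the smallest the design allows. Every gene without overlap between the 2 groups returns it, so the test adds nothing to the separation given above. Of all genes, 16.2% did not overlap between DKO tumors and controls and 7.67% between TKO tumors and controls. Between TKO and DKO tumors the log2 fold change of B2m was 0.074 ± 0.23 (95% interval -0.42 to 0.57, edgeR adjusted p = 0.938). B2m was the most abundant member per length, 2708 CPM per kb in the controls, with between 15202 and 37084 counts a library, so counting error was small beside the spread between mice.

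The heavy chains had fold changes closer to 0 than B2m. H2-D1 was at 1525, 1011, 819.6 and 1244 CPM in the controls, 1301, 820.2, 1432 and 1191 CPM in the DKO tumors and 909, 1413, 1171 and 730.2 CPM in the TKO tumors, and its log2 fold change was 0.045 ± 0.28 in DKO tumors (edgeR adjusted p = 0.941), -0.12 ± 0.28 in TKO tumors (adjusted p = 0.874) and -0.17 ± 0.28 between the tumor groups (adjusted p = 0.877). H2-K1, the other heavy chain, had log2 fold changes of -0.18 ± 0.24 and -0.27 ± 0.24 (adjusted p = 0.686 and 0.626). The ratio of B2m to H2-D1 in CPM was 1.57 to 2.54 in the controls, 1.15 to 1.47 in the DKO tumors and 1.08 to 2.09 in the TKO tumors. This ratio was lower in the 4 DKO tumors than in the 4 controls. The ratio of B2m to H2-K1 overlapped between groups. It was 6.67 to 14.3 in the controls, 7.06 to 8.52 in the DKO tumors and 6.36 to 10.1 in the TKO tumors. Both ratios were computed after the values were seen and were not tested. Heavy chain genes are highly polymorphic and have close paralogs, the mice were FVB crosses and the reads were mapped to a C57BL/6 reference, so H2 levels may depend on how reads were assigned, and that effect was not tested.

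The immunoproteasome replaces 3 catalytic subunits of the constitutive proteasome and is induced by interferon gamma. Psmb10 was at 18.3, 24.7, 17.1 and 40.5 CPM in the control libraries, 12.6, 8.7, 19.4 and 14.6 CPM in the DKO libraries and 19.2, 22.9, 20.02 and 15.9 CPM in the TKO libraries. Psmb10 (Entrez 19171, chromosome 8 from 108459628 to 108462292 in mm9) was highest in control 4, and 3 of the 4 DKO tumors were below all controls. Its log2 fold change was -0.86 ± 0.29 in DKO tumors (95% interval -1.49 to -0.24, edgeR adjusted p = 0.102, DESeq2 adjusted p = 0.0516), -0.37 ± 0.29 in TKO tumors (edgeR adjusted p = 0.561) and 0.50 ± 0.29 between the tumor groups (adjusted p = 0.619). Psmb9, the second subunit, was at 9.72, 13.6, 6.64 and 10.6 CPM in the controls, 6.98, 3.24, 7.87 and 5.37 CPM in the DKO tumors and 8.02, 7.18, 5.52 and 5.74 CPM in the TKO tumors. The log2 fold change of this gene was -0.78 ± 0.28 (adjusted p = 0.12) and -0.61 ± 0.28 (adjusted p = 0.308) against the controls. Psmb8, the third, had log2 fold changes of -0.50 ± 0.31 and -0.11 ± 0.31 (adjusted p = 0.352 and 0.899). The constitutive subunit Psmb6 averaged 119.7 CPM in the controls and 90.4 CPM in the DKO tumors. The ratio of Psmb9 to Psmb6 was 0.0607 to 0.0992 in the controls and 0.03304 to 0.0909 in the DKO tumors. That of Psmb10 to Psmb7, also constitutive, was 0.133 to 0.4403 and 0.0857 to 0.219. Both ratios overlapped, and whether the lower levels were particular to the induced subunits was not tested.

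Genes of peptide transport and loading also had fold changes close to 0. Tap1, a subunit of the peptide transporter, was at 26.2, 21.1, 9.62 and 20.7 CPM in the controls, 20.5, 14.2, 27.6 and 13.4 CPM in the DKO tumors and 19.1, 24.9, 21.2 and 14.8 CPM in the TKO tumors, with log2 fold changes of -0.034 ± 0.30 (edgeR adjusted p = 0.96) and 0.046 ± 0.30 (adjusted p = 0.964). Those of Tap2, the other transporter subunit, were -0.25 ± 0.27 and -0.027 ± 0.27, and those of Tapbp, which encodes tapasin, -0.13 ± 0.24 and -0.02 ± 0.24. Nlrc5, the transactivator of class I genes, had -0.048 ± 0.35 and -0.16 ± 0.35. All adjusted p for these 4 genes were between 0.614 and 0.978. Tap1 and Psmb9 are neighbors that are read in opposite directions and share 212 exon bases in the annotation, so reads from there could not be assigned without the strand.

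The promoters of B2m (chr2:122147537-122147686, plus strand) and Psmb9 (chr17:34187331-34187480, minus strand) are shown because B2m was the class I gene with a response element core and Psmb9 shares an E2F core with its neighbor Tap1. Capitals mark the response element core in B2m and, in Psmb9, the reverse complement of the E2F core TTTGGCGC. That core is at 34187421 to 34187428 of chromosome 17 in GRCm38.p6. It lies in the windows of both Psmb9 and Tap1, which start on either side of it. Whether the core bears on the levels of the 2 genes was not tested.
B2m: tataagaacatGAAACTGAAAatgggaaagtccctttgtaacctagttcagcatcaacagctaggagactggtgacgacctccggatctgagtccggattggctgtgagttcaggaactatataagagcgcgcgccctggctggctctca
Psmb9: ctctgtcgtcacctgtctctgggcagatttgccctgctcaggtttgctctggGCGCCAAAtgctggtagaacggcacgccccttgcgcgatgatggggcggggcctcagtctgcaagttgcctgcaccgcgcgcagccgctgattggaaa

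Genes of class II presentation were high in particular livers of each group and overlapped between groups. Of the 5 genes, 4 had a log2 fold change below 0 in DKO tumors, with a median of -0.47, and 2 in TKO tumors, with a median of 0.012, and 0 passed the test. H2-Aa was at 51.3, 23.2, 28.5 and 80.9 CPM in the control libraries, 21.3, 19.3, 49.4 and 41.3 CPM in the DKO libraries and 28.8, 42.6, 70.8 and 46 CPM in the TKO libraries. H2-Aa, a class II alpha chain, was highest in control 4 and TKO 3, and the groups overlapped. Its log2 fold change between TKO and DKO tumors, 0.52 ± 0.42 (edgeR adjusted p = 0.732), was the highest of the module in that comparison.

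Cd74, the invariant chain that guides class II molecules, was at 180.4, 83.4, 105 and 246 CPM in the controls, 106, 88.7, 211 and 169.5 CPM in the DKO tumors and 99.6, 142, 211 and 168 CPM in the TKO tumors, in nearly the same order of libraries. Ciita, the class II transactivator, was at 2.45, 0.984, 0.813 and 3.0 CPM in the controls, 1.46, 0.87, 2.9 and 2.12 CPM in the DKO tumors and 1.57, 2.2, 2.15 and 2.69 CPM in the TKO tumors, with log2 fold changes of 0.017 ± 0.46 (adjusted p = 0.988) and 0.23 ± 0.46 (edgeR adjusted p = 0.851). H2-Eb1, a class II beta chain, had only 4 to 26 counts a library and log2 fold changes of -0.69 ± 0.48 (adjusted p = 0.4), -0.59 ± 0.47 (adjusted p = 0.569) and 0.10 ± 0.48 (adjusted p = 0.964). H2-Ab1, the beta chain that pairs with H2-Aa, ranged from 10.5 CPM in DKO 2 to 39.4 CPM in control 4.

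Macrophage markers were high in the same livers. The sum of the 11 markers was 667, 272, 301 and 658 CPM in the controls, 260.4, 216, 553 and 116 CPM in the DKO tumors and 210.5, 454, 733 and 193 CPM in the TKO tumors, and the 4 libraries with the highest sum, control 1, control 4, DKO 3 and TKO 3, were also the 4 with the highest mean of the class II genes. Csf1r, the receptor that defines macrophages, was at 88.1 CPM in control 4 and 82.0 CPM in TKO 3. The ratio of H2-Aa to Csf1r was 0.873 to 1.03 in the 4 controls, 0.660 to 2.74 in the DKO tumors and 0.732 to 1.71 in the TKO tumors. DKO 4 and TKO 4 had the highest ratios, 2.74 and 1.71. B and plasma cell markers summed to 3.83 CPM in DKO 4 and 9.70 CPM in TKO 4, and the 7 dendritic cell markers other than Bst2 to 8.49 and 11.4 CPM. The part of any of these cells in the class II levels was not tested.

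**Figure D4:**
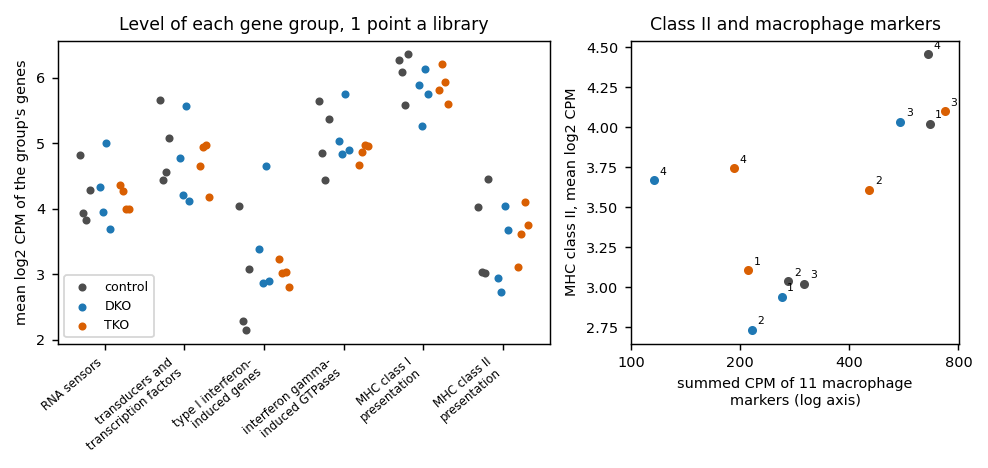
Left, mean log2 CPM of the genes of each role (x axis), 1 point a library, colored by group; right, mean log2 CPM of the 5 class II genes against the summed CPM of 11 Kupffer cell and macrophage markers (log axis), numbered by library within the group. The type I genes spread from 2.15 to 4.66, and DKO 4 and TKO 4 lie above libraries with a like marker sum on the right.

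Further genes of the pathway were counted from lists of 130 genes, of which 102 were tested. The transcripts of the interferons themselves were at or near 0. None of 19 type I, II and III interferon genes reached more than 4 counts in a library, Ifnb1 and Ifng had at most 2, and 0 were tested, so that no level of the ligands was detectable at this depth, at which 3 counts equal 0.177 to 0.369 CPM.

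Among 10 interferon receptor and JAK-STAT genes tested, edgeR called 1 between DKO tumors and controls, where it called 2.42% of all genes, and 0 in the other comparisons. Ifngr1, the ligand-binding chain of the interferon gamma receptor, was at 34.3, 24.2, 28.4 and 33.1 CPM in the controls, 102, 109, 45.7 and 75.5 CPM in the DKO tumors and 61.7, 90.6, 28.8 and 55.8 CPM in the TKO tumors. All DKO tumors were above all controls, as they were for 1231 of the 13882 genes tested, and 16.2% of all genes did not overlap in either direction. The log2 fold change of Ifngr1 was 1.47 ± 0.32 between DKO tumors and controls (edgeR adjusted p = 0.0469, DESeq2 adjusted p = 0.00146). This call was not stable: the adjusted p was 0.0531 with total counts only, and it was above 0.05 when control 1, control 2, control 3, control 4, DKO 1, DKO 2, DKO 4 or TKO 1 was left out, at 0.0591, 0.144, 0.132, 0.0725, 0.106, 0.114, 0.0713 and 0.056. The log2 fold change stayed between 1.31 and 1.74 in every alternative run, and the call held without control 1 and DKO 3 together (adjusted p = 0.0413). In TKO tumors, with TKO 3 inside the control range, the value was 0.98 ± 0.32 (edgeR adjusted p = 0.183), and between the tumor groups -0.49 ± 0.32 (adjusted p = 0.665). Its partner chain Ifngr2 had 0.021 ± 0.25 in DKO and 0.30 ± 0.25 in TKO tumors, and Ifnar2, of the type I receptor, was the lowest of its list in DKO tumors at -0.19 ± 0.23 (adjusted p = 0.651). As given above, no member of the module passed the edgeR test in any comparison. Whether the level of Ifngr1 bears on the members induced by interferon gamma was not tested.

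edgeR called 0 of 9 negative regulators, 0 of 17 further genes of nucleic acid sensing, 0 of 35 further interferon-induced genes, 0 of 20 genes of the further class I list and 0 of 11 further class II genes tested, in each of the 3 comparisons. Over all 102 genes, the unadjusted p was under 0.05 for 7 in DKO tumors, 7 in TKO tumors and 3 between the tumor groups, or 6.86, 6.86 and 2.94%, against 24.0, 16.3 and 9.0% of all genes. DESeq2 called 2 in DKO tumors, Ifngr1 as higher and Psme1, an activator subunit of the proteasome, as lower. voom called these and H2-Ke6 (10.4 and 13.0% of all genes called), and both called 0 in the other comparisons. H2-Ke6 stands in the further class I list by its symbol, but it is not a class I molecule. The further interferon-induced genes had median log2 fold changes of -0.037 in DKO tumors and -0.22 in TKO tumors. In DKO tumors they ran from -1.14 ± 0.67 for Gbp2b, a guanylate-binding protein, to 1.09 ± 0.43 for Cmpk2, the neighbor of Rsad2 that encodes a mitochondrial nucleotide kinase (adjusted p = 0.32 and 0.153). Isg20, an antiviral exonuclease, was the highest of them in TKO tumors at 1.03 ± 0.34 (adjusted p = 0.183). The lowest sensing gene in TKO tumors was Ifi203, of the DNA-binding p200 family, at -1.23 ± 0.44 against controls (adjusted p = 0.207) and -1.60 ± 0.44 against DKO tumors (adjusted p = 0.425). Its levels in the 4 TKO tumors, at 2.71, 1.56, 2.07 and 2.09 CPM, were below every other library. Genes without overlap in either direction made up 2.94% of the 102 in each of these comparisons, against 7.67 and 4.87% of all genes.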

How the data were processed

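Poly(A) RNA of 4 control livers, 4 DKO tumors and 4 TKO tumors was sequenced on SOLiD. The authors mapped the reads to mm9 with BWA and deposited raw read counts per Entrez gene made with featureCounts. Tool versions, use of strand and the handling of multi-mapping reads are not given in the sources used here. Members were matched by Entrez identifier, and mm9 positions and exon lengths came from the GENCODE annotation of that build. Members and lists were chosen with earlier results of these data known. Named members are those called by DESeq2 or edgeR and, for each role, the members with the highest and the lowest fold change in each comparison, and companions likewise per list. Others that are named were chosen after their values were seen.

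Counts were filtered with filterByExpr, scaled by TMM and fitted with edgeR's quasi-likelihood model (edgeR 4.0.16, R 4.3.3) over all 12 libraries, with Benjamini-Hochberg adjustment over 13882 genes at 0.05. Log2 CPM used a prior count of 2. The total per library was 9165812 to 16424973 counts, and p-values set the difference between groups against the spread between these mice. Alternatives were DESeq2 1.42.0, limma 3.58.1 voom with quality weights, other scalings and filters, fewer libraries, and a replicate block. The edgeR fit was tested on simulated data. Promoter letters are from RefSeq.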

Additional observations from a re-analysis of the deposited data

Results flagged for a closer look

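A library lay far from the other 3 of its group, by the gap to its nearest neighbor relative to the range of the group (Dixon's test at 95%), in 2 of 135 groups of members and conditions tested, while chance gives about 1 in 20. Ifi44 in the DKO tumors had its highest level in DKO 3, 36.9 CPM beside 4.90 to 6.13 CPM in the others, and the gap was 0.891 of the range on the log2 scale. Ifi35 in the TKO tumors had its highest level in TKO 1, 4.58 CPM beside 3.13 to 3.22 CPM, with a gap of 0.923 of the range.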

How the results depend on the processing

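Members called between DKO tumors and controls numbered 2 with DESeq2 and 2 with voom, and 0 with every edgeR alternative run. Leaving out each library in turn gave 0 to 0 members called in each of the 3 comparisons. The median log2 fold change of the members then ran from -0.28 (without DKO 3) to 0.30 (without control 1) in DKO tumors, from -0.31 (without control 3) to 0.041 (without control 1) in TKO tumors and from -0.31 (without DKO 2) to 0.13 (without DKO 3) between the tumor groups. Ifit2 in DKO tumors was 1.57 with DESeq2 (adjusted p = 0.04) and 1.91 with voom (adjusted p = 0.0378), and B2m was -0.61 with DESeq2 (adjusted p = 0.0123).

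The fold change turned direction in members that had not passed the test. In TKO tumors against controls, Ifih1 was 0.11 with voom and 0.065 with total counts only, and Ifi44 was 1.00 with voom. Without control 1 and DKO 3, a setting chosen after seeing the data, TKO tumors had 0.13 for Ifih1, 0.021 for Ddx58 and 1.16 for Ifi44 against controls, Ciita in DKO tumors was -0.11, and between the tumor groups Irf7 was 0.78, Ifit2 0.17, Igtp 0.24 and Gbp3 0.13. With single libraries left out, the ranges in DKO tumors were -0.68 to 0.16 for Dhx58, -2.24 to 0.63 for Irf7, -0.088 to 0.21 for H2-D1 and -0.29 to 0.37 for Ciita. In TKO tumors against controls they were -0.16 to 0.13 for Ifih1, -0.33 to 0.019 for Ddx58, -1.20 to 1.16 for Ifi44, -0.14 to 0.33 for Gbp6, -0.18 to 0.22 for Tap1 and -0.022 to 0.58 for Ciita. Between the tumor groups they were -0.14 to 0.62 for Dhx58, -1.44 to 0.78 for Irf7, -0.65 to 0.17 for Ifit2, -0.32 to 0.24 for Igtp, -0.99 to 0.13 for Gbp3, -0.026 to 0.16 for B2m and -0.13 to 0.38 for H2-Eb1. The cause was not tested.

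With the replicate number as a block, 0 members were called in each comparison, and the members' medians were -0.02, -0.18 and -0.16. Libraries with the same number correlated at -0.174 to 0.37 in their deviations from the group means. Libraries with different numbers were not compared, so these values cannot show whether the numbers pair the libraries. The sex covariate was not run, since all 12 libraries read as the same sex. Counts of 4 to 26 limit H2-Eb1, and strand and multi-mapping limit overlapping and paralogous genes.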
